A study of Mus musculus with 2 samples.

Results

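A set of 10 receptors for peptide and amine hormones other than corticotropin was followed in the mouse adrenal gland: the class I cytokine receptors Prlr, Ghr and Lepr, the receptor tyrosine kinase Insr, and the G protein-coupled receptors Ednrb, Pth1r, Avpr1a, Gipr, Lhcgr and Htr4. The members were taken by gene symbol and are 10 of 55536 annotated genes, with 56 transcript models among them. The series held 1 group of 2 libraries, called animal 1 and animal 2 here, of total RNA from the whole adrenal gland. The mice were B6CASTF1/J females aged 2 months. This hybrid has a C57BL/6J and a CAST parent, and its reads were assigned to the C57BL/6J reference assembly mm10 with the GENCODE M21 annotation. No treatment, allele or transgene is named in the labels, and 300 ng of RNA with ERCC spike-ins, synthetic RNAs of known amount, entered each library. The labels conflict on the animals: the library descriptions of both name 1 animal number, while the biosample descriptions name 2, and the donor entry is the same for both. The biological replicate numbers were followed, but n counts libraries here, and the spread between them may be technical if both came from 1 animal.

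Class I cytokine receptors have no enzyme of their own. On binding prolactin, growth hormone or leptin they switch on Janus kinases bound to their tails. These kinases phosphorylate STAT transcription factors, and SOCS proteins then damp the signal. The insulin receptor is itself a tyrosine kinase that phosphorylates IRS adaptors and so turns on PI3 kinase and AKT. The remaining receptors cross the membrane several times and act through heterotrimeric G proteins, most of them on cyclic AMP or phospholipase C. In the adrenal cortex corticotropin is the main drive of glucocorticoid output, and other hormone receptors are known as further inputs. The receptors for gastric inhibitory polypeptide, luteinizing hormone, vasopressin and serotonin are known in people from adrenal disease in which cortisol comes under their control.

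Expected counts on annotated genes came to 34203664 in animal 1 and 35959484 in animal 2, and 13254 and 13316 genes reached 1 TPM, a transcript abundance that divides by length and by the library's total. A count of 0 allows up to 3 counts, or 0.0877 CPM (counts scaled by the library's total) in animal 1 and 0.0834 in animal 2. For each library 2 quantifications were deposited, and values are from the first unless the second is named. Zona fasciculata markers summed to 3958 and 4602 TPM and medulla markers to 1814 and 1481, so cortex and medulla were both in the samples. Markers of adjoining tissue differed: 4 of 4 brown adipocyte markers were over 1.5-fold higher in animal 2 (563 and 1138 TPM summed), and 5 of 5 liver markers were over 1.5-fold higher in animal 1 (179 and 114 TPM). Kidney markers summed to 19.9 TPM in animal 1 and 0.46 in animal 2, where 3 of 5 were at 0, Kap (350 counts in animal 1) among them. Of 5 ovary markers, which summed to 5.51 and 5.59 TPM, Fshr had 0 counts in both, Inha had 247 and 236, and Amh had 18 and 17. Macrophage markers summed to 121 and 110 TPM (5 of 5 higher in animal 1) and those of the X zone, the transient inner cortex, to 2379 and 1722. With 2 libraries of 1 group no test was made. All intervals below are 95% exact binomial intervals, which cover counting error only, since each side of a ratio is 1 library. PCR copies of 1 molecule can be counted apart, which the intervals do not allow for.

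Prlr, Ghr and Insr made up most of the receptor mRNA. Prlr stood at 75.9 TPM in animal 1 and 110 in animal 2 (92.7 ± 23.8, SD, n = 2), Ghr at 45.0 and 60.7 (52.9 ± 11.1), and Insr at 37.9 and 53.0 (45.5 ± 10.6). Among 22015 nuclear protein-coding genes they ranked 608th, 1195th and 1386th. Ednrb was lower, at 9.57 and 11.5 TPM (10.5 ± 1.36), followed by Pth1r at 4.97 and 5.1 (5.04 ± 0.0919) and Lepr at 4.15 and 3.58 (3.87 ± 0.403). These 6 of 10 receptors reached 1 TPM in both animals, and the other 4 did in neither. Neighbours in this order did not overlap between the animals except Ghr with Insr, and Lhcgr with Htr4. In bulk tissue fewer cells of a type and less RNA per cell cannot be told apart.

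**Figure D1:**
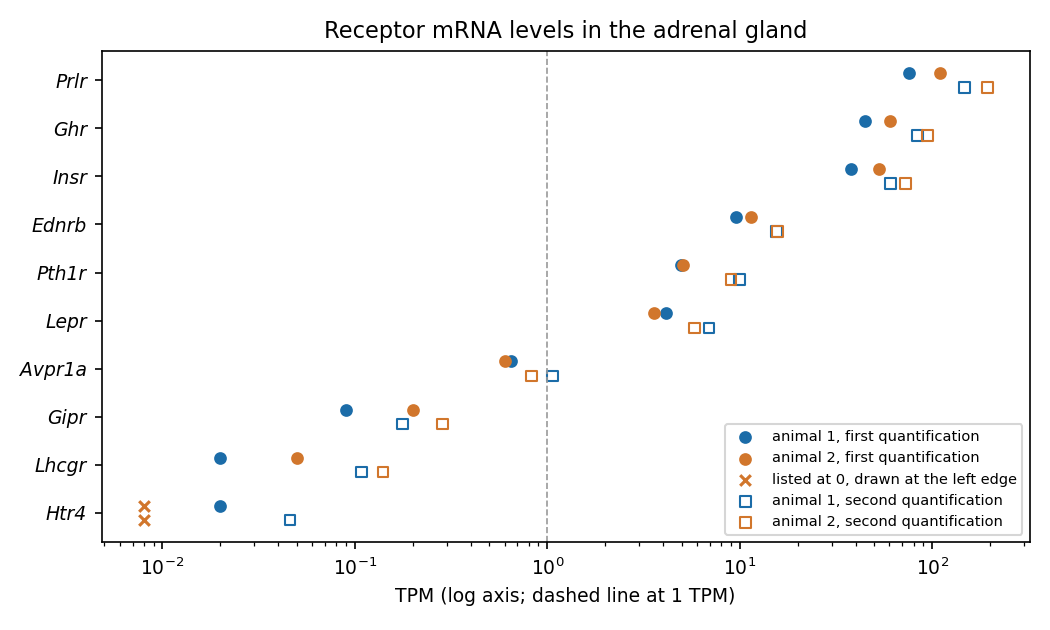
TPM of each receptor on a log axis, for animal 1 (blue) and animal 2 (orange), in the first quantification (filled circles) and the second (open squares). Prlr, Ghr and Insr sit highest in all 4 sets of values, Prlr from 75.9 to 194 TPM, and Avpr1a, Gipr, Lhcgr and Htr4 lie near or under 1 TPM.

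The second quantification gave the same order with higher values. Prlr was at 147 and 194 TPM there, Ghr at 84.2 and 94.5, Insr at 60.7 and 72.7, Ednrb at 15.5 and 15.7, Pth1r at 10.01 and 9.02, and Lepr at 6.93 and 5.82. No neighbours overlapped between the animals in it. Summed over the 10 receptors, TPM was 178 and 244 in the first quantification and 326 and 393 in the second.

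Scaled counts and TPM gave different ratios between the animals. Of the 6 receptors whose mean reached 100 counts, 0 were over 1.5-fold apart in scaled counts, where 5.68% of the 12171 genes with such a mean were (296 higher in animal 2 and 395 in animal 1). By this scaling Ghr, Insr and Ednrb were higher in animal 2 and Prlr, Lepr and Pth1r in animal 1, whereas scaling by spike-ins put all 6 higher in animal 2 and the median of all genes at 0.19. The receptors' median log2 ratio was 0.06 against -0.01 over all 12171 genes. By deposited TPM the median gene was already 0.11 (log2) higher in animal 2, and by that measure Prlr was 1.44-fold, Insr 1.40-fold, Ghr 1.35-fold and Ednrb 1.20-fold higher there. The log2 ratio of Pth1r was 0.04 by TPM and -0.17 by counts, and the TPM of Lepr was lower in animal 2 (ratio 0.863). By TPM, too, 0 of the 6 were over 1.5-fold apart, beside 9.24% of 12166 genes.

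**Figure D2:**
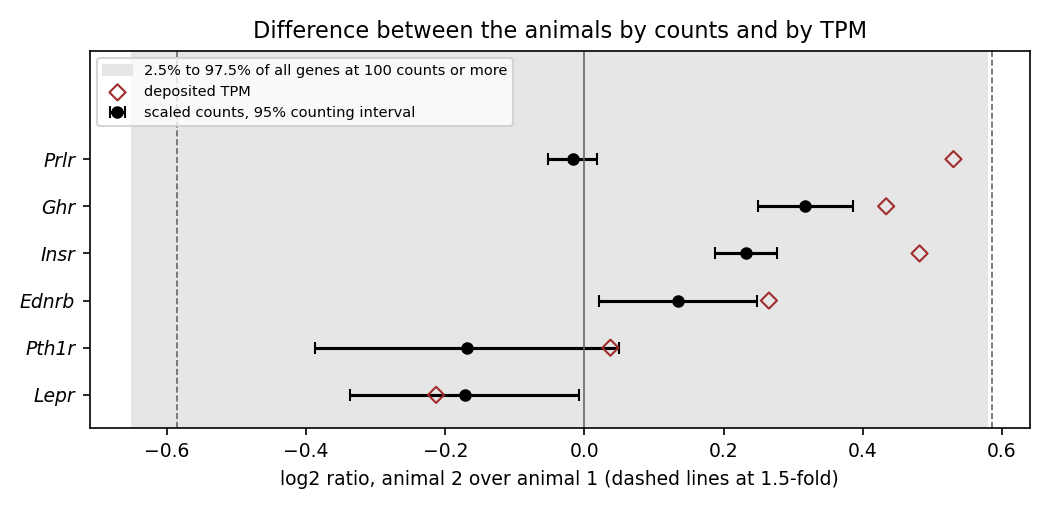
Log2 ratio of animal 2 over animal 1 for the 6 receptors with a mean of at least 100 counts, by scaled counts (black, with 95% counting intervals) and by deposited TPM (red diamonds); the grey band holds the central 95% of all 12171 such genes and dashed lines mark 1.5-fold. Prlr lies at -0.02 by counts and 0.53 by TPM. The band is drawn from scaled counts only, and by counts all 6 receptors lie inside it.

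Prlr (ENSMUSG00000005268.20, chr15:10177238-10349180 on mm10, plus strand) encodes the prolactin receptor. Its estimated counts were 12799 in animal 1 and 12789 in animal 2, and the interval of their scaled ratio spanned 1 (0.988, 0.964 to 1.01). It was the receptor with the most counts, 49.7% and 45.7% of the sum over the 10. What differed was how the counts were shared among transcript models. Prlr-202, which codes for the long form of 608 codons, took 84.4% and 80.8% of the counts and held 31.5 and 31.9 TPM. Prlr-203 is a fragment of 564 bases that the annotation marks as incomplete, and 501 of these bases lie in exons of Prlr-202. It took 3.77% and 7.44% of the counts (483 and 951), which over so short a model came to 29.7 and 61.9 TPM, or 39.2% and 56.5% of the gene's TPM. Summed over models not marked incomplete, Prlr was at 45.3 and 46.1 TPM (45.7 ± 0.552). On that sum Prlr was no longer above Ghr, which was at 42.4 and 57.8 TPM (50.1 ± 10.9), and their ranges overlapped. The second quantification also placed much of the TPM of Prlr in incomplete models, with 43.0 and 66.9 TPM in Prlr-203 and 20.7 and 57.2 in Prlr-206.

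The long and short prolactin receptors share the part outside the cell, the membrane span and the start of the tail, and part where the last coding exons differ. Short forms lack most of the tail through which STAT5 is engaged. The stretches below show this point of divergence, with the end of the shared coding sequence in lower case and the form's own coding sequence in capitals (GENCODE M21 transcripts, mm10, 5′ to 3′; the capitals are chr15:10328281-10328340 in Prlr-202 and chr15:10346410-10346469 in Prlr-205).
Prlr-202, long form: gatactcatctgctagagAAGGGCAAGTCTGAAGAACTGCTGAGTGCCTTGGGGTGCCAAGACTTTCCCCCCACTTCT
Prlr-205, short form: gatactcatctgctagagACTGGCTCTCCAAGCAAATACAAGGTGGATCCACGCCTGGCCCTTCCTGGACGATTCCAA

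After the 840 shared coding bases, Prlr-202 goes on for 987 bases to its stop and Prlr-205 for 93. Prlr-205, of 310 codons, was at 2.81 and 3.37 TPM. The other short forms, Prlr-204 of 292 codons and Prlr-212 of 303, were listed at 0 in both animals in the first quantification. In the second, Prlr-212 was at 0.748 and 0.514 TPM and Prlr-204 again at 0. Short forms made up 8.19% and 9.55% of the TPM of long and short forms together, and 7.87% and 7.30% in the second quantification. Prlr-201, a model with a retained intron, held 6.95 and 5.99 TPM, and 22.1 and 15.7 in the second quantification. Some exonic bases of Prlr are shared with Gm21973 on the same strand, and that gene had 2.42 and 3.94 counts.

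**Figure D3:**
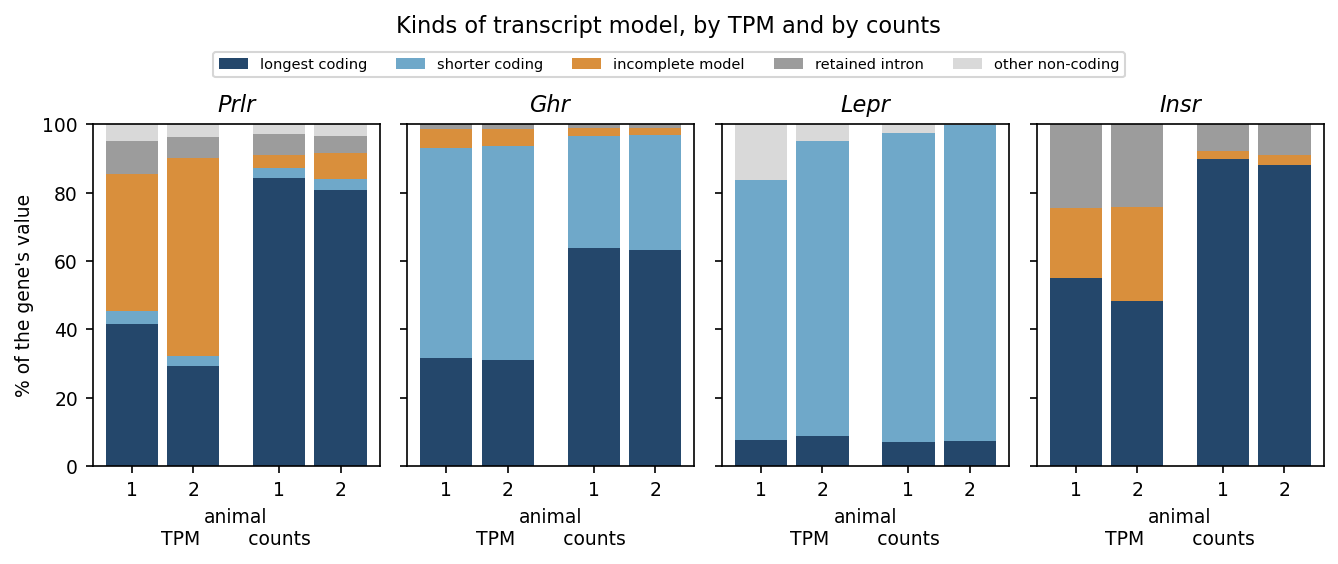
Percent of each gene's TPM (left pair of bars) and of its estimated counts (right pair) in 5 kinds of transcript model, for animals 1 and 2. Incomplete models hold 40.2% and 57.9% of the TPM of Prlr but 3.90% and 7.65% of its counts, while in Lepr the shorter coding forms lead by both measures.

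Ghr (ENSMUSG00000055737.12, chr15:3317760-3583492, minus strand) encodes the growth hormone receptor. It had 3161 counts in animal 1 and 3982 in animal 2, and was 1.25-fold higher in animal 2 (1.19 to 1.31). In mice the gene also makes a growth hormone binding protein, a soluble form in which the membrane span and tail are replaced by a short hydrophilic end through another exon. Both forms are shown where they part, with shared sequence in lower case and each form's own coding sequence in capitals (minus strand; capitals at chr15:3325929-3325988 in Ghr-201 and chr15:3327627-3327686 in Ghr-203).
Ghr-201, full-length receptor: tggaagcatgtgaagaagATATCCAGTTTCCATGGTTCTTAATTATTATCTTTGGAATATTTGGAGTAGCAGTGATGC
Ghr-203, binding protein: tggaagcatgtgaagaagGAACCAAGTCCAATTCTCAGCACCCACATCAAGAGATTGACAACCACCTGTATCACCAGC

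By estimated TPM the binding protein form was the more abundant one per transcript. Ghr-203, of 297 codons, was at 27.7 and 37.4 TPM, 61.5% and 61.6% of the gene's TPM, and Ghr-201, of 650 codons, at 14.2 and 18.2. Over all models, binding protein forms held 1.95 and 2.01 times the TPM of full-length forms, and 1.91 and 1.87 times in the second quantification. This ratio was close to constant over 2 animals and 2 methods. Both methods divide shared reads by estimate, since 1009 of the 1171 bases of Ghr-203 lie in exons of Ghr-201 and 162 do not. By counts the order was the other way, since the full-length models are longer: they took 63.9% and 63.1% of the counts and the binding protein forms 32.8% and 33.9%. The methods disagreed on which binding protein model the reads belong to, as Ghr-202, which has the same coding sequence, was at 0 and 0.64 TPM in the first quantification and at 29.1 and 6.12 in the second. Ghr-203 was at 19.3 and 48.6 TPM in the second.

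Lepr (ENSMUSG00000057722.17, chr4:101717404-101815352, plus strand) encodes the leptin receptor. It had 641 and 575 counts, 1.13-fold higher in animal 1 (1.01 to 1.26), a direction that turned with spike-in scaling. Its forms share 2667 coding bases. The long form, Lepr-201, carries the tail that recruits STAT3, and the short forms end soon after the box that binds the Janus kinase. Their ends are set side by side here with each form's own coding bases in capitals, and the short forms reach their stop codon within the stretch shown (plus strand; capitals at chr4:101814448-101814507, chr4:101811348-101811365 and chr4:101792071-101792082).
Lepr-201, long form: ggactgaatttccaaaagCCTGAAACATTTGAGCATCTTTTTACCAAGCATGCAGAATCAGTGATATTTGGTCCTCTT
Lepr-203, short form: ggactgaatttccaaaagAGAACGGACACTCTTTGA
Lepr-202, short form: ggactgaatttccaaaagGTCACTGTTTAA

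The short form Lepr-203, of 894 codons, led the gene with 2.89 and 2.75 TPM, 69.7% and 76.7% of its TPM. Lepr-201, of 1162 codons, was at 0.32 and 0.31 TPM, on 44.6 and 41.7 estimated counts. Long-form TPM was 9.22% and 9.12% of that of long and short forms together, and 5.54% and 5.36% in the second quantification. Lepr-202, of 892 codons, was at 0.26 and 0.34 TPM in the first quantification and 1.24 and 1.61 in the second. In both animals and by both methods most Lepr mRNA thus coded for forms without the long tail.

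Insr (ENSMUSG00000005534.10, chr8:3122061-3279617, minus strand) encodes the insulin receptor. Its 7499 counts in animal 1 and 8901 in animal 2 gave a scaled ratio of 1.17 (1.14 to 1.21). The receptor is known in 2 forms that differ by a small alternatively spliced exon near the end of its hormone-binding chain, and the form without it also binds insulin-like growth factor II well. The junction is shown with and without these 36 bases, in capitals (minus strand, chr8:3181702-3181737).
Insr-203, with the exon: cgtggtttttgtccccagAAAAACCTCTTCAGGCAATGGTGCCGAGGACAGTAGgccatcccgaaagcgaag
Insr-201, without it: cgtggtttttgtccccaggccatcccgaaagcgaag

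Insr-201, the complete model of 1372 codons that lacks the exon, held 20.8 and 25.6 TPM, which was 54.9% and 48.4% of the gene's TPM and 90.0% and 88.0% of its counts. The exon lies in 1 annotated model, Insr-203, a fragment of 672 bases marked as incomplete. Insr-203 was at 7.71 and 14.6 TPM on 154 and 276 estimated counts, and at 16.9 and 22.7 TPM in the second quantification. It made up 27.0% and 36.2% of its TPM and that of Insr-201 together (32.5% and 39.1% in the second). Because 636 of its bases lie in exons of Insr-201, that share describes a fragment model and does not measure how often the exon was included. Models with retained introns, Insr-202 at 8.21 and 11.1 TPM and Insr-204 at 1.04 and 1.67, held 24.4% and 24.2% of the gene's TPM. Without incomplete models Insr was at 30.1 and 38.4 TPM. Ghr and Insr are also known in fat cells and liver, whose markers differed between the animals as given above, and the part of these tissues in the ratios of Ghr and Insr was not tested.

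**Figure D4:**
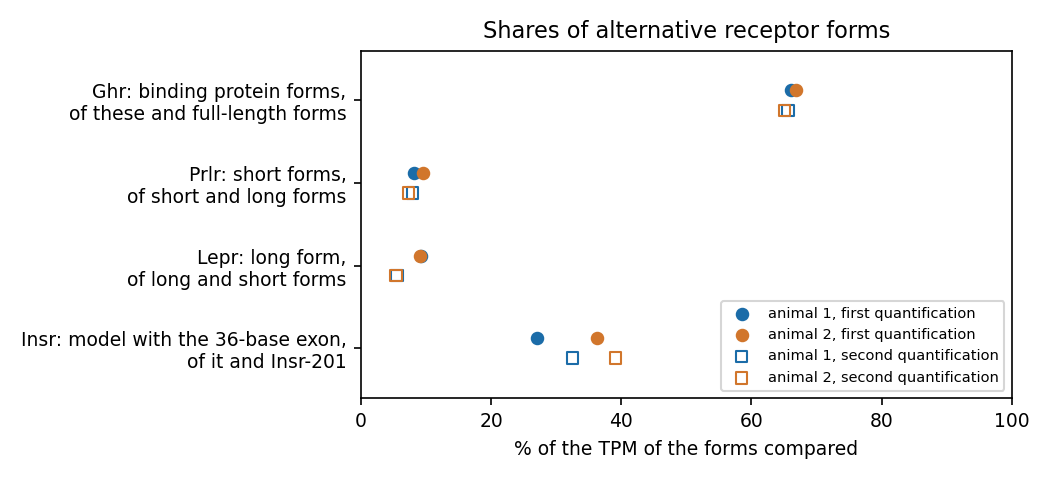
Share of an alternative form in the TPM of the forms compared, for animals 1 (blue) and 2 (orange) in the first (filled) and second (open) quantification. Ghr binding protein forms lie between 65.1% and 66.8%, Prlr short forms between 7.30% and 9.55%, the Lepr long form between 5.36% and 9.22%, and the Insr fragment model with the 36-base exon between 27.0% and 39.1%.

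Ednrb (ENSMUSG00000022122.15, chr14:103814625-103844402, minus strand) encodes the endothelin receptor of type B, which binds all endothelins. It had 1215 and 1348 counts, a log2 ratio of 0.13 in favour of animal 2 (0.02 to 0.25). Its 3 models share 1 coding sequence of 442 codons and differ in their untranslated ends. Ednrb-202 led in the first quantification with 4.15 and 4.35 TPM, before Ednrb-201 at 3.25 and 3.83 and Ednrb-203 at 2.16 and 3.32. In the second, Ednrb-201 led with 12.2 and 10.2 TPM, 78.8% and 65.1% of the gene's TPM. The animals did not differ in which model led by either method, but the methods did. Endothelium, where Ednrb is also known, had markers summing to 143 TPM in animal 1 and 157 in animal 2, and their part in the level of Ednrb was not tested.

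Pth1r (ENSMUSG00000032492.14, chr9:110722085-110747145, minus strand) encodes the receptor shared by parathyroid hormone and its related peptide. It had 368 and 331 counts, and the interval of its ratio spanned 1 (0.890, 0.765 to 1.04). Its 3 complete models share 591 codons and start at different first exons. Pth1r-204 led with 3.43 and 2.13 TPM, 68.9% and 41.8% of the gene's TPM, and with 67.3% and 50.0% in the second quantification. Pth1r-202 held 1.12 and 1.47 TPM and Pth1r-201 0.43 and 0.97. In the second quantification Pth1r-202 was at 0.770 TPM in animal 1 and near 0 in animal 2. Pth1r shares 95 exonic bases with Myl3 on the other strand, which had 2 and 6 counts. The receptor is also known in kidney tubules, and kidney markers were higher in animal 1 as given above; their part in the counts of Pth1r was not tested.

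The last 4 receptors were under 1 TPM in both animals, and 3 of them had 12 counts or fewer in each library. Avpr1a, the vasopressin receptor of type 1A that signals through phospholipase C (ENSMUSG00000020123.6, chr10:122448499-122453452), had 58 and 51 counts, or 0.65 and 0.6 TPM (ratio 0.870, 0.585 to 1.29). Gipr, the receptor for gastric inhibitory polypeptide (ENSMUSG00000030406.7, chr7:19156061-19166127), had 5 and 12 counts, a ratio of 2.37 with an interval of 0.779 to 8.60. Most of the counts of Gipr in animal 2 (8.11) went to Gipr-203, a model with retained introns, and its complete coding model Gipr-201 took 2.84 in animal 1 and 0 in animal 2. By TPM the shorter Gipr-204, not a protein-coding model, led with 0.06 and 0.12 TPM on 2.16 and 3.89 counts. Lhcgr, the receptor for luteinizing hormone (ENSMUSG00000024107.7, chr17:88716481-88791990), had 4 counts in animal 1 against 1 in animal 2, or 4.04-fold more in animal 1 with an interval from 0.4 to 199. The second quantification placed 17.5 and 25.8 counts on it, all on the full-length model Lhcgr-201, which is 0.108 and 0.140 TPM. Htr4, a serotonin receptor that raises cyclic AMP (ENSMUSG00000026322.9), had 1 count in animal 1 and 0 in animal 2. Expression of Lhcgr and Htr4 was at about the floor of 3 counts in the first quantification, and their differences between the animals were not detectable at this depth.

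Promoter windows were read for the 7 receptors found among RefSeq promoters (GRCm38.p6, which has the coordinates of mm10), 13 windows of 300 bases around a start, and 5 motifs were searched on both strands. CAAGGTCA, the site of steroidogenic factor 1, was in 0 of 13 windows and in 1.56% of all 32851. The cyclic AMP response element TGACGTCA was in 0 of 13 and in 1.79% of all, while its leading part TGACG, which the whole element also holds, was in 4 of 13 (Pth1r, Avpr1a, Ednrb and Prlr) and in 20.8% of all. TATAAA was in 2 of 13, of Avpr1a and Ghr, against 13.6% of all. TTCNNNGAA, the site of STAT5, which Prlr itself activates, was in 1 of 13 and in 8.30% of all. That 1 window belongs to Prlr (chr15:10223656-10223955, plus strand), and the match, in capitals here, lies 110 to 102 bases before its start.
Prlr, STAT5 match: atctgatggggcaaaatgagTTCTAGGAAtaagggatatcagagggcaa

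These are matches of letters and not measured sites. The RefSeq start used for this Prlr window is 80 bases from that of Prlr-204, a short form listed at 0 in both animals.

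The signalling genes below the cytokine receptors were all present: 20 of 20 reached 1 TPM in both animals. The kinase Jak1 led with 47.2 ± 10.5 TPM (n = 2), before the adaptor Grb2 at 45.5 ± 2.37, and the inhibitor Socs1 was lowest at 1.05 ± 0.0212. Of 19 whose mean reached 100 counts, 3 were over 1.5-fold apart, all higher in animal 1, beside 5.68% of all genes in either direction. Socs3 had 237 and 90 counts, 2.66-fold higher in animal 1 (2.08 to 3.43). Socs2 had 794 and 470, 1.71-fold higher (1.52 to 1.92). Stat5a, a transcription factor that prolactin and growth hormone receptors activate, had 1413 and 929, 1.54-fold higher (1.41 to 1.67). Socs2 and Socs3 encode inhibitors of this pathway. With spike-in scaling the count was 1 instead of 3, beside 7.95% of all genes. The list's median log2 ratio was -0.16, with 14 genes higher in animal 1 and 5 in animal 2. It was 0.04 with spike-in scaling and 0.02 by TPM. The medians of all genes were -0.01, 0.19 and 0.11 in the same order, so the list's median was below that of all genes each time. Marker lists of macrophages, the X zone, the medulla and liver also had negative medians (-0.27, -0.58, -0.33 and -0.90). In these 5 of 5, 2 of 3, 5 of 5 and 5 of 5 genes were higher in animal 1. Medians were negative too for kidney, glia, zona glomerulosa, ovary and, barely, zona fasciculata. They were positive for adipocytes, brown adipocytes, endothelium, capsule and stroma, and mural cells. The part of any of these in the cytokine receptor list was not tested. The receptors Prlr, Ghr and Lepr were not among the genes over 1.5-fold apart.

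Of the insulin receptor's pathway, 18 of 19 genes reached 1 TPM in both animals. The kinases Akt1 at 127 ± 0.997 TPM and Akt2 at 70.6 ± 11.3 led, with Pik3r1, the regulatory subunit of PI3 kinase, at 41.6 ± 2.41. The orphan receptor Insrr, a relative of Insr, was lowest at 0.235 ± 0.00707 TPM. Of 18 genes with a mean of at least 100 counts 1 was over 1.5-fold apart, beside 5.68% of all genes. The count was 3 with spike-in scaling or TPM, beside 7.95% and 9.24% of all genes. It was 0 with total counts or the second quantification, beside 6.10% and 5.78%. The list's median log2 ratio was 0.06, and 0.05 in the second quantification, 0.26 with spike-in scaling and 0.19 by TPM. The medians of all genes were -0.01, -0.04, 0.19 and 0.11 in the same order.

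Among 24 genes for G proteins and their regulators 23 reached 1 TPM in both animals. Gnas, whose product stimulates adenylyl cyclase, led at 845 ± 166 TPM, before the beta subunits Gnb2 at 201.1 ± 15.2 and Gnb1 at 138 ± 26.7, and Gnal was lowest at 0.375 ± 0.0495. Of 23 with a mean of at least 100 counts 1 was over 1.5-fold apart, beside 5.68% of all genes. That 1 gene was the receptor kinase Grk6, with 1335 and 858 counts and 1.57-fold higher in animal 1 (1.44 to 1.72). With spike-in scaling 0 of the 23 were, beside 7.95% of all genes. The list's median log2 ratio was 0.03, and 0.24 with spike-in scaling, 0.17 by TPM, -0.02 with total counts and -0.03 in the second quantification. The medians of all genes were -0.01, 0.19, 0.11, -0.07 and -0.04 in the same order.

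**Figure D5:**
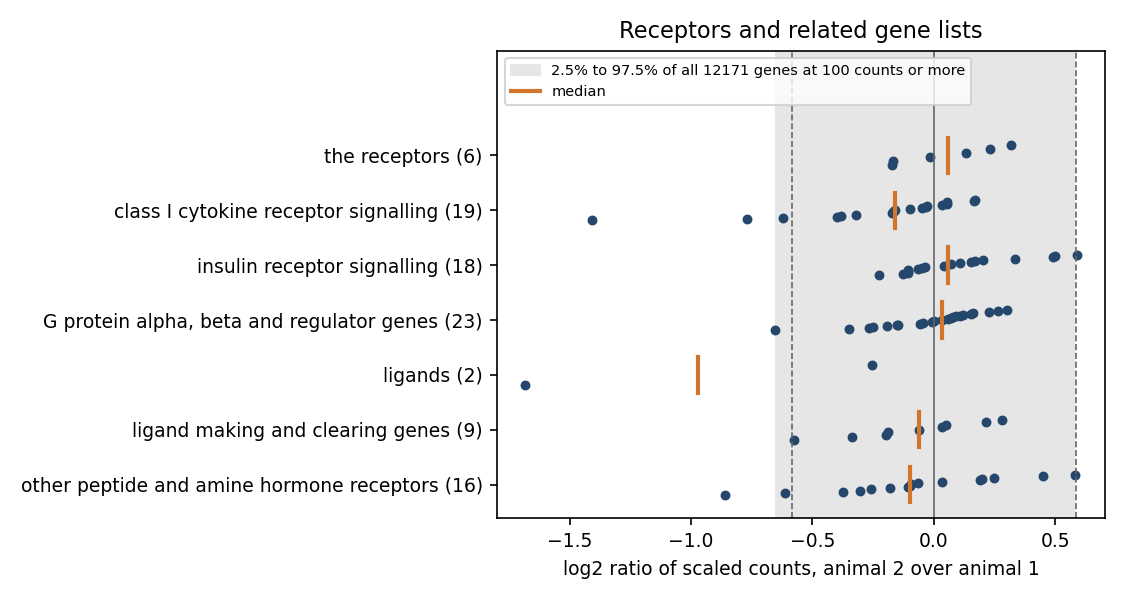
Log2 ratio of scaled counts, animal 2 over animal 1, of each gene with a mean of at least 100 counts in the receptor set and 6 related lists (number of genes in parentheses), with medians in orange and the central 95% of all 12171 such genes in grey. The receptors lie between -0.17 and 0.32, and Lep (-1.68) and Socs3 (-1.41) lie farthest from 0.

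Most genes for the receptors' ligands had no counts in the gland itself. Of 14 ligand genes, 10 had 0 counts in both animals: Prl, Gh, Lhb, Cga, Ins1, Ins2, Gip, Avp, Edn2 and Pth. Edn3, which encodes a ligand of Ednrb, was highest with 588 and 498 counts, or 5.92 ± 0.113 TPM (n = 2), and Edn1 was at 0.34 ± 0.0707 TPM. Pthlh, a ligand of Pth1r, had 6 counts in animal 1 and 1 in animal 2. Lep, the leptin gene of fat cells, had 195 and 61 counts, 3.23-fold higher in animal 1 (2.41 to 4.38), while the 5 adipocyte markers, Lep among them, summed to 1747 TPM there and 1969 in animal 2. Edn3 and Lep were the 2 ligand genes with at least 100 counts, so 1 of 2 was over 1.5-fold apart, beside 5.68% of all genes.

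Of 10 genes that make or clear these ligands, 8 reached 1 TPM in both animals. Of 9 with at least 100 counts 0 were over 1.5-fold apart (median log2 ratio -0.06), beside 5.68% of all genes. The count was 1 with total counts or the second quantification, beside 6.10% and 5.78% of all genes. The list's median was 0.14 with spike-in scaling and 0.26 by TPM, where all genes had medians of 0.19 and 0.11. Ece1, which cuts endothelin precursors to their active form, stood at 130 ± 24.9 TPM. Lnpep, a peptidase that degrades vasopressin and oxytocin, was at 35.7 ± 2.43 and Ide, which degrades insulin, at 30.5 ± 3.87. Tph1, the enzyme that starts serotonin synthesis outside the brain, was lowest with 5 counts in animal 1 and 0 in animal 2.

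Beside 37 other receptors for peptide and amine hormones the leading members of the set were among the abundant ones. The cytokine receptor chain Il6st was at 108 and 123 TPM, the corticotropin receptor Mc2r at 103 ± 27.3 and the oxytocin receptor Oxtr at a mean of 103. Prlr, at 75.9 and 110 TPM, overlapped Mc2r (83.7 and 122) and Oxtr (90.1 and 115). These are values over all models of each gene. Summed over models not marked incomplete, Prlr was at 45.3 and 46.1 TPM, below the values of Mc2r and Oxtr over all their models. Of the 37, 16 reached 1 TPM in both animals, as 6 of the 10 did, and 7 had 0 counts in both: Fshr, Pth2r, Crhr2, Ghrhr, Avpr1b, Avpr2 and Trhr. Pth2r, a relative of Pth1r, and the other vasopressin receptors Avpr1b and Avpr2 were thus not detectable at this depth. Of 16 whose mean reached 100 counts, 2 were over 1.5-fold apart, beside 5.68% of all genes, Csf2rb (1.82-fold, 1.59 to 2.07) and Sctr (1.53-fold, 1.29 to 1.82), both higher in animal 1, and the median log2 ratio was -0.10. With spike-in scaling the count was 3, beside 7.95% of all genes, and the median 0.11. By TPM the median was 0.07. The medians of all genes were -0.01 in scaled counts, 0.19 with spike-ins and 0.11 by TPM.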

How the data were processed

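Total RNA-seq of adrenal gland was measured in 2 libraries of 1 group. The authors deposited an expected count and a TPM per gene and transcript, each transcript's percent of its gene's TPM, and a second table of estimated counts and TPM per transcript. Per the file headers these have the columns of RSEM and kallisto. For versions, aligner and strand settings, nothing is given in the sources used here. The members, lists and alternatives were chosen with earlier results of these data known. The named genes are the 10 receptors and, of each list, the 3 of highest TPM, the lowest and any over 1.5-fold apart. Most transcripts that lead a receptor or hold 10% of its TPM are named, but not all. Some list members are not reported here, though the lists' counts and medians include them. Rows naming no gene (26249, with 5.79 and 1 counts) were left out. Rounded expected counts entered the scaling by the trimmed mean of M-values (edgeR 4.0.16, factors 1.02 and 0.981) and unrounded ones the ratios, with a prior of 0.5 counts for log2 ratios. Intervals were Clopper-Pearson (scipy 1.17.1). Incomplete models are those the annotation tags as lacking an end. The libraries differed beyond sampling noise (chi-square per degree of freedom 70.4 over 19066 genes), so they are not 1 library deposited again; this does not tell whether they came from 1 animal. The ratio script was tested on simulated data. Alternatives were DESeq2 1.42.0 size factors, spike-ins, total counts, TPM, the second quantification, other filters and priors, and each library left out. Promoter windows cover 7 of the 10 genes.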

Additional observations from a re-analysis of the deposited data

How the results depend on the processing

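No paired analysis was possible because the labels give 1 group, and no test was made that a block could enter. The count of 0 receptors over 1.5-fold apart stayed 0 under DESeq2 size factors, spike-in, total-count and TPM scaling, in the second quantification and at a mean of at least 10 counts. It was 3 with no filter, which adds Gipr, Lhcgr and Htr4. The same count of 6 receptors reached 1 TPM in both animals also in the second quantification, at 2 TPM and in each library alone, and 7 did at 0.5 TPM. Spike-in scaling moved the median of all genes to 0.19 (log2) and gave Prlr 0.19, Lepr 0.03, Pth1r 0.04 and Avpr1a 0.00, all with animal 2 higher. By TPM, Prlr (0.53), Pth1r (0.04) and Lhcgr (1.32) turned to animal 2 higher, as did Lhcgr in the second quantification (0.50). Scaled second-quantification counts gave Prlr -0.06. Summed receptor TPM was 211 ± 46.7, was 360 in the second quantification and 150 without incomplete models, a choice made after seeing the data, and ranged from 178 to 244 with 1 library left out. Of the lists' counts over 1.5-fold apart, cytokine receptor signalling went from 3 to 1 with spike-ins and 2 by TPM, other receptors from 2 to 3 with DESeq2 size factors and spike-ins, and insulin signalling went from 1 to 3 with spike-ins and with TPM and to 0 with total counts and in the second quantification. The G protein list went from 1 to 0 with spike-ins, and ligand making and clearing from 0 to 1 with total counts and in the second quantification. The share of all genes over 1.5-fold apart changed as well. It was 7.95% with spike-ins, 9.24% by TPM, 6.10% with total counts, 5.78% in the second quantification and 5.61% with DESeq2 size factors. Of 63 alternative values of single ratios 49 stayed inside the counting interval. Spike-in and total-count scaling each move all well-counted genes by nearly the same amount, so there the width of the interval decides. Some alternatives could hardly move a ratio: a larger prior at high counts, or leaving out incomplete models where these hold few or no counts. The causes of the remaining shifts were not tested. The 63 include those of Avpr1a, Gipr and Lhcgr, whose intervals are so wide (Gipr 0.779 to 8.60) that staying inside says little. The ratio of Prlr, with a narrow interval (0.964 to 1.01), left it with spike-ins, total counts, TPM, the second quantification and without incomplete models. Depth limits Gipr, Lhcgr and Htr4, whose counts were 12 or fewer in each library of the first quantification.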
